A study of Arabidopsis thaliana with 7 samples.

Results

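Leaf senescence and chlorophyll breakdown were followed through 10 genes of *Arabidopsis thaliana*, taken by their identifiers from a deposited table of RNA-seq counts for 33602 genes. They were the NAC transcription factor genes ORE1 (AT5G39610), NAP (AT1G69490) and JUB1 (AT2G43000), the senescence-associated genes SAG12 (AT5G45890), SAG13 (AT2G29350) and SAG21 (AT4G02380), and the chlorophyll breakdown genes NYE1 (AT4G22920), NYC1 (AT4G13250), PPH (AT5G13800) and PAO (AT3G44880). All 10 had a row in the table. The first digit of each identifier is the number of its chromosome.

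The RNA came from whole seedlings of the wild-type accession Col-0 that had grown for 14 days at 22 °C on MS medium, under days of 16 h light and 8 h dark. It was measured in 3 replicate libraries, and the series holds no other RNA group, no mutant, no older leaf and no senescence treatment. The chromatin libraries of the study, for H3K4me1, H3K4me2, H3K4me3 and input, were not analysed here. No label states that the replicates were grown separately, so the tests measure only the spread between these 3 libraries, which may be technical.

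Leaf senescence is the ordered last phase of a leaf, in which chloroplasts are dismantled and nitrogen and minerals are moved to growing organs. NAC transcription factors control its onset, and senescence-associated genes are those first isolated because their transcripts accumulate as leaves age or are stressed. In chlorophyll breakdown, chlorophyll b is first reduced towards chlorophyll a, the magnesium and the phytol tail are removed, and the porphyrin ring is then opened. The steps after ring opening yield colourless catabolites that are stored in the vacuole.

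The 3 libraries held 30946664, 18493022 and 20764970 counts. Replicate 3 stood apart in its share of rRNA counts, 2.97% against 1.20% and 1.39% in replicates 1 and 2, from 4 rRNA genes. Levels are given as CPM, which brings the counts of all libraries to 1 common library size, here with TMM scaling. CPM is not corrected for transcript length, so the CPM of different genes are set side by side only to show where each gene lies, whereas 1 gene can be compared between libraries. Markers of both parts of a seedling were present, with RBCS1A of the leaf Rubisco at 10326 ± 475 CPM (SD, n = 3) and PYK10, a root beta-glucosidase, at 2385 ± 9.71 CPM. The other markers were the leaf genes LHCB1.3 at 7065 ± 406 CPM and RCA at 4510 ± 125 CPM and the root phosphate transporter gene PHT1;1 at 42.6 ± 0.860 CPM. In RNA from whole seedlings, fewer cells that use a gene and less of its RNA per cell cannot be told apart.

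A gene is called expressed here where its mean over the libraries reaches 1 CPM, and 8 of the 10 genes were. That threshold was passed by 56.3% of all genes and by 69.2% of protein-coding genes. All 4 chlorophyll breakdown genes passed, as did 2 of the 3 NAC genes and 2 of the 3 senescence-associated genes. JUB1 lay just under the threshold and SAG12 had no count in any library. The median of the 10 genes was 24.7 CPM, against 2.95 CPM over all genes and 8.20 CPM over protein-coding genes.

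**Figure D1:**
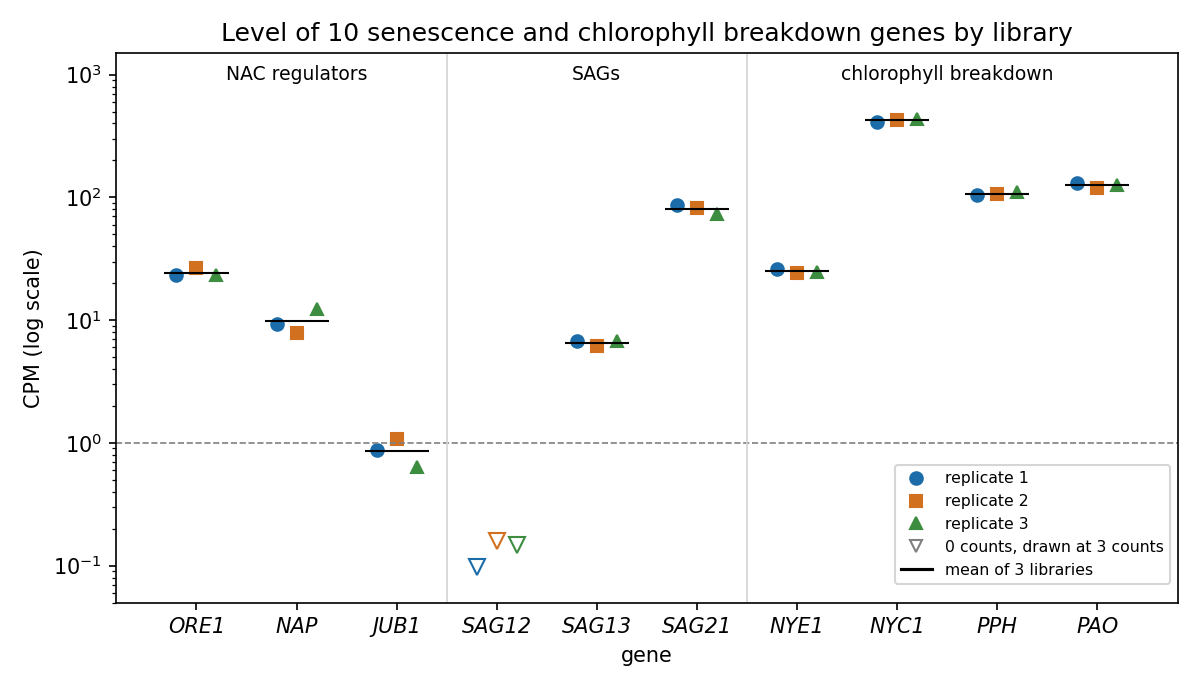
CPM (log axis) of each of the 10 genes in replicates 1, 2 and 3, with the mean as a black line and the threshold of 1 CPM dashed. SAG12 had 0 counts and is drawn at the level that 3 counts would give in each library. NYC1 lies at 409.7 CPM or higher in every library, and JUB1 straddles 1 CPM.

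ORE1 encodes a NAC factor that promotes age-dependent leaf senescence and acts downstream of ethylene signalling. It had 728, 498 and 475 counts in replicates 1, 2 and 3, or 23.5, 26.6 and 23.1 CPM. Its mean was 24.4 ± 1.91 CPM (SD, n = 3), at or above that of 75.7% of all genes. Replicate 2 was the highest library and the other two lay close together.

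NAP encodes a NAC factor that promotes leaf senescence and is linked to abscisic acid. It had 288, 147 and 253 counts, or 9.31, 7.86 and 12.3 CPM, with a mean of 9.83 ± 2.28 CPM (SD, n = 3). Replicate 3 was the highest and replicate 2 the lowest, a 1.57-fold range.

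JUB1 differs from these in role, since it encodes a NAC factor known to delay senescence and to respond to hydrogen peroxide. It had 27, 20 and 13 counts, or 0.873, 1.07 and 0.633 CPM, and its mean was 0.858 ± 0.218 CPM (SD, n = 3). The exact Poisson 95% intervals of the 3 libraries, 0.575 to 1.27, 0.653 to 1.65 and 0.337 to 1.08 CPM, all contain 1 CPM, so the side of the threshold on which JUB1 lies was not resolved at this depth. These intervals cover counting error only and would be wider if each read pair gave 2 counts. In the RefSeq gene table, JUB1 overlaps AT2G42990, which had 19, 2 and 10 counts. Counts of that size may hold reads of either gene, because no source used here gives the strand setting of the counting. PIF4 (AT2G43010), the next gene along in the count table and itself a light-signalling factor that promotes senescence in the dark, stood at 27.1 ± 1.45 CPM.

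SAG12 encodes a cysteine protease that is widely used as a marker because its transcript is largely restricted to senescing leaves. It had 0, 0 and 0 counts, whereas the other genes of the set had counts in every library. By the looser criterion of a count in at least 1 library, 70.3% of all genes and 83.8% of protein-coding genes passed. A count of 0 still allows up to 3 counts, which is 0.0969, 0.162 and 0.144 CPM of the totals of replicates 1, 2 and 3. This limit covers counting error only and would be higher if each read pair gave 2 counts. The absence of any count was seen in 29.7% of all genes, and in 4325 of 26712 protein-coding genes. On 1 side of SAG12, its next neighbour in the table, the autophagy gene APG7 (AT5G45900), was expressed at 15.3 ± 1.12 CPM. On the other side, AT5G45880 and AT5G45875 had 0 counts in every library, as SAG12 had.

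SAG13 encodes a short-chain dehydrogenase whose transcript is known to appear ahead of visible yellowing and under stress. It had 210, 116 and 138 counts, or 6.79, 6.20 and 6.72 CPM, a mean of 6.57 ± 0.322 CPM (SD, n = 3). The 3 libraries lay within a 1.09-fold range. SAG13 lies among neighbours that the gene table places next to TRI (AT2G29330), a tropinone reductase gene, at 2.395 ± 0.516 CPM. The genes on either side, AT2G29340 at 43.2 ± 0.780 CPM and AT2G29360 at 41.3 ± 3.87 CPM, had higher counts than SAG13 in every library, and AT2G29370 stood at 0.644 ± 0.106 CPM. How reads matching several genes were handled is not given, so the split within this cluster is uncertain.

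SAG21, also called LEA5, encodes a late embryogenesis abundant-like protein of mitochondria that responds to oxidative stress. It had 2705, 1532 and 1493 counts, or 87.4, 81.9 and 72.7 CPM, with a mean of 80.7 ± 7.43 CPM (SD, n = 3). Replicate 1 was the highest library and replicate 3 the lowest, a 1.20-fold range. Among the senescence-associated genes studied here, transcripts were thus listed at 0 for SAG12, at 6.20 to 6.79 CPM for SAG13 and at 72.7 to 87.4 CPM for SAG21.

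The chlorophyll breakdown genes are given in the order of the pathway. NYC1 encodes a chlorophyll b reductase, which takes the first step from chlorophyll b towards chlorophyll a. It had 12674, 8009 and 8987 counts, or 409.7, 428 and 438 CPM, a mean of 425 ± 14.3 CPM (SD, n = 3). That is at or above the mean of 99.3% of all genes. The libraries lay within a 1.07-fold range.

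NYE1, also called SGR1, encodes the Mg-dechelatase that removes magnesium from chlorophyll a and whose loss keeps leaves green. It had 814, 451 and 507 counts, or 26.3, 24.1 and 24.7 CPM, a mean of 25.04 ± 1.14 CPM (SD, n = 3).

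PPH encodes pheophytinase, which cuts the phytol tail from pheophytin. It had 3258, 1975 and 2274 counts, or 105, 106 and 111 CPM, a mean of 107 ± 3.08 CPM (SD, n = 3). PAO encodes pheophorbide a oxygenase, which opens the porphyrin ring. It had 4037, 2248 and 2582 counts, or 130.5, 120.2 and 126 CPM, a mean of 125 ± 5.17 CPM (SD, n = 3). PAO overlaps AT3G44870 in the RefSeq gene table, but that gene had only 21, 24 and 14 counts.

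Ordered by CPM, the genes ran NYC1, PAO, PPH, SAG21, NYE1, ORE1, NAP, SAG13, JUB1 and SAG12. The only neighbours whose ranges over the 3 libraries overlapped were NYE1 and ORE1, at 24.1 to 26.3 CPM and 23.1 to 26.6 CPM, so their order is not drawn. The closest of the other neighbours were PAO and PPH, and PPH was at 0.807, 0.879 and 0.881 of PAO in replicates 1, 2 and 3. These ratios hold for CPM and may turn per length. With 3 libraries an exact sign-flip test cannot go below a two-sided p of 0.25, so neighbours were compared by their ranges and not tested.

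NYC1 held the largest share of the chlorophyll breakdown counts in every library, on a scale not corrected for length. NYC1 took 61.0%, 63.1% and 62.6% of the counts of the 4 genes in replicates 1, 2 and 3, and PPH took 15.7%, 15.6% and 15.9%. PAO took 19.4%, 17.7% and 18.0%. NYE1 took 3.92%, 3.56% and 3.53%. Summed, the 4 genes reached 672, 678 and 699 CPM, the 3 NAC genes 33.7, 35.5 and 36.1 CPM, and the 3 senescence-associated genes 94.2, 88.1 and 79.4 CPM.

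**Figure D2:**
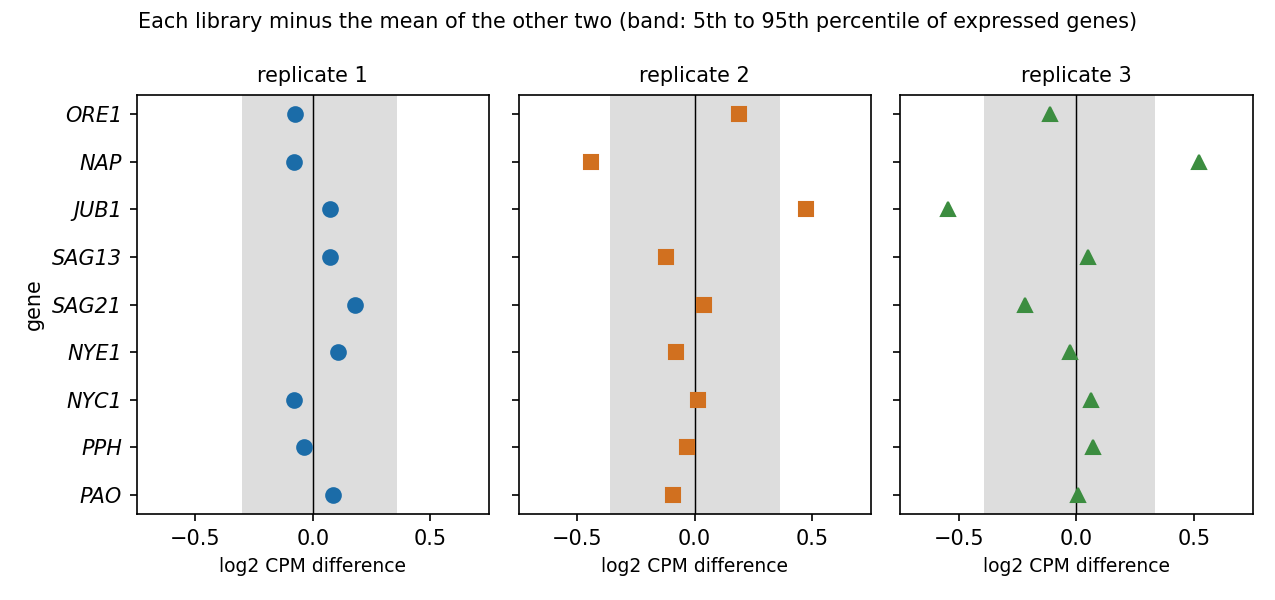
Difference in log2 CPM between each library and the mean of the remaining libraries (x axis, prior count of 2) for the 9 genes with a count (y axis), in 1 panel per replicate. The grey band spans the 5th to 95th percentile of all 18915 expressed genes. NAP and JUB1 lie outside the band in replicates 2 and 3, on opposite sides, and all other points lie inside. JUB1, with a mean under 1 CPM, is not among the genes that set the band.

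No library was high or low for the whole set. Against the mean of the other two, replicate 1 was higher in 5 of the 9 genes with a count, replicate 2 in 4 and replicate 3 in 5. Over all expressed genes the shares were 51.4%, 50.9% and 49.5%. The largest differences were in the NAC genes NAP and JUB1. NAP was at 0.52 in replicate 3 and -0.44 in replicate 2, as a log2 difference from the mean of the other libraries. JUB1 went the other way, at 0.48 in replicate 2 and -0.55 in replicate 3, on few counts. SAG21 stood at -0.22 in replicate 3, the library with the highest rRNA share. The part of that share in these differences was not tested.

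Whether such differences exceed counting error was asked with edgeR's goodness-of-fit test over all 18915 expressed genes, with Benjamini-Hochberg adjustment. Of the 8 genes tested, 4 varied beyond counting error, against 32.8% of all expressed genes. They were SAG21 (adjusted p = 2.05e-06), NYC1 (adjusted p = 7.73e-05), NAP (adjusted p = 0.000391) and PAO (adjusted p = 0.026) by edgeR. The other four were ORE1 (adjusted p = 0.117), PPH (adjusted p = 0.248), NYE1 (adjusted p = 0.395) and SAG13 (adjusted p = 0.787). The count was 2 without replicate 1 (NAP and SAG21), against 2964 of all 18912 genes tested. Without replicate 3 it was 2 (NYC1 and PAO), against 3172 of 18939. It was also 2 (NYC1 and SAG21) when counts were halved, against 1211 of 18915. That alternative treats 2 counts as 1 read pair. The test takes each count as independent, whereas 84.5% to 86.2% of counts from 1 to 19 were even. If each read pair gave 2 counts, counting error is understated at full counts. The shares over all genes are not matched for level, and the test detects smaller spreads in genes with more counts.

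Against genes of their own level, none of the 8 varied past the threshold (goodness-of-fit test in edgeR at the dispersion trend, adjusted p of 0.9999 for each), as against 0.148% of expressed genes called. NAP alone had an unadjusted p under 0.05 in that test, as did 4.61% of all expressed genes. NAP had a coefficient of variation of 23.2%, higher than 96.4% of the 500 genes nearest to it in CPM, whose median was 9.73%. SAG21, at 9.21%, lay above 95.2% of its 500 nearest genes. SAG13, at 4.90% against a median of 11.7%, lay above 12.2% of its own 500. Counting error alone would give SAG13 about 8.04%, so its low value is not read as a trait of the gene. NYC1, PPH, PAO and NYE1 had coefficients of variation of 3.36%, 2.87%, 4.12% and 4.56%, and ORE1 had 7.81%.

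**Figure D3:**
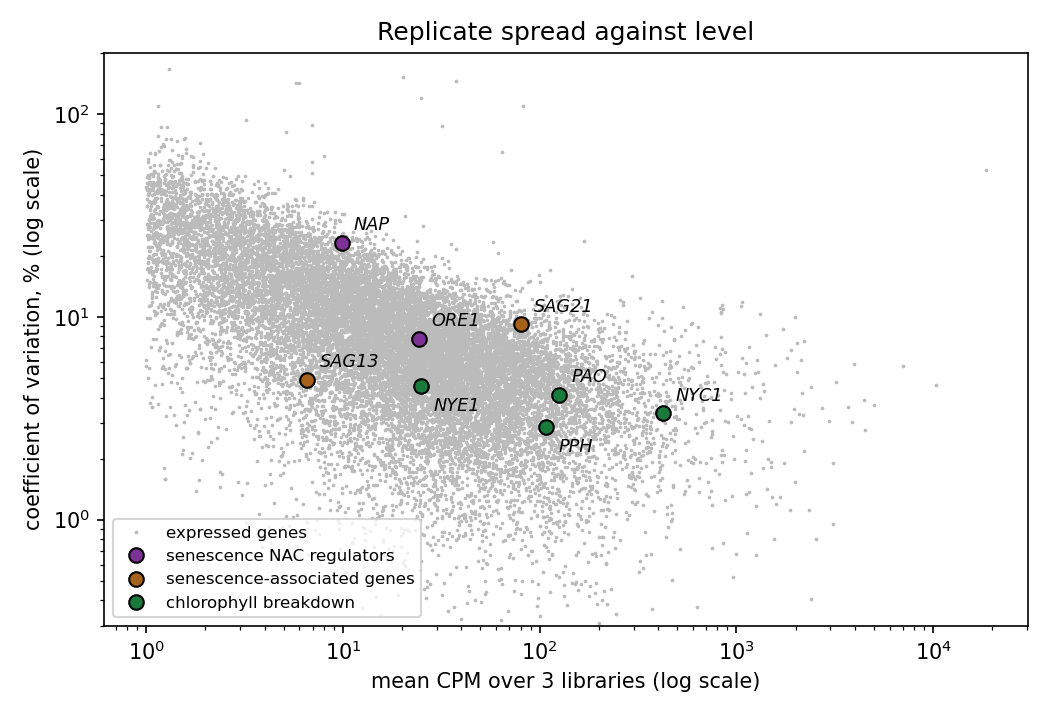
Coefficient of variation over the 3 libraries in percent (y, log axis) against mean CPM (x, log axis) for all expressed genes (grey) and the 8 expressed genes of the set (coloured by role). The 32 genes below 0.3% are not drawn. NAP and SAG21 lie at the upper edge of the genes of their level, and SAG13 lies in the lower part.

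Further genes of the same processes were taken from lists of 62 genes. Of these 58 were expressed, against 56.3% of all genes and 69.2% of protein-coding genes. Beyond counting error 22 of the 58 varied, against 32.8% of all expressed genes, a share that is not matched for level. None varied beyond genes of its own level (edgeR goodness-of-fit, adjusted over all expressed genes), against 0.148% of all expressed genes. In that test 2 of the 58 had an unadjusted p under 0.05, against 4.61% of all expressed genes.

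All 10 other chlorophyll breakdown genes were expressed, and their median was 47.4 CPM. TIC55, which hydroxylates colourless catabolites, stood at 187 ± 8.67 CPM (SD, n = 3), the chlorophyllase gene CLH1 at 149 ± 6.62 CPM and HCAR, which completes the conversion of chlorophyll b to a, at 67.0 ± 2.95 CPM. The lowest were CLH2, another chlorophyllase gene, at 7.91 ± 0.994 CPM, and NYE2, the paralog of NYE1, at 3.53 ± 1.59 CPM. NYE2 had 145, 32 and 86 counts, or 4.69, 1.71 and 4.19 CPM, and was lowest in replicate 2 (adjusted p = 1.58e-06 against counting error and 0.344 against genes of its level, edgeR). NYE1 was also lowest in replicate 2, yet by less, so that the CPM of NYE1 over that of NYE2 was 5.61, 14.1 and 5.90 in replicates 1, 2 and 3. NYE1 and NYE2 share sequence, and how shared reads were counted is not given.

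A pair of other chlorophyll breakdown genes is named here after their values were seen. NOL, a chlorophyll b reductase gene like NYC1, stood at 25.4 ± 1.56 CPM. The CPM of NYC1 over that of NOL was 17.4, 16.1 and 16.9 in replicates 1, 2 and 3. RCCR, which acts on the product of PAO, stood at 67.1, 63.6 and 56.3 CPM. It was lowest in replicate 3, so the CPM of PAO over that of RCCR was 1.95, 1.89 and 2.24.

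All 21 other transcription factors linked to senescence were expressed, and their median was 24.7 CPM. The highest were EIN3 at 187 ± 3.85 CPM (SD, n = 3) and EIL1 at 114 ± 2.56 CPM, both of ethylene signalling, and GLK1, which maintains chloroplasts and whose protein is bound by ORE1, at 136 ± 6.67 CPM. The lowest were ABI5, of abscisic acid signalling, at 3.25 ± 0.311 CPM and the NAC gene ANAC016 at 3.04 ± 0.852 CPM. ORS1, the closest relative of ORE1 and also a promoter of senescence, stood at 22.0, 23.1 and 20.0 CPM. This value was named after it was seen, and in CPM each library lay below that of ORE1, at 23.5, 26.6 and 23.1 CPM.

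The microRNA miR164 directs cleavage of ORE1 transcripts in young leaves. Its precursor genes were at or near 0 in this table. MIR164A had no count, MIR164B had 12, 4 and 4 counts and MIR164C had 1, 0 and 0. Precursor counts in a library of long RNA do not measure the mature microRNA.

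Of 21 other senescence-associated genes 20 were expressed, and the median of the 21 was 17.5 CPM. SAG2, an aleurain-like protease gene, stood at 748 ± 8.79 CPM (SD, n = 3), DIN10, a raffinose synthase-like gene induced by darkness, at 345 ± 3.01 CPM and GAMMA-VPE, a vacuolar processing enzyme gene, at 247 ± 3.36 CPM. The lowest were the sugar transporter gene SAG29 at 2.17 ± 0.575 CPM and the receptor kinase gene FRK1 at 0.857 ± 0.0183 CPM. FRK1 had only 26, 16 and 18 counts, so this SD understates its counting error, and its side of 1 CPM is uncertain. SAG12 was the only gene at 0 in all libraries among the 24 genes that carry this label here.

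All 7 nutrient remobilisation genes were expressed, and their median was 55.7 CPM. The nitrate transporter gene NRT1.7, which loads nitrate from older leaves into the phloem, stood at 211 ± 0.142 CPM (SD, n = 3), the glutamate dehydrogenase gene GDH2 at 156 ± 1.46 CPM and the pyruvate orthophosphate dikinase gene PPDK at 107 ± 5.92 CPM. The lowest were the nitrilase gene NIT2 at 22.7 ± 2.20 CPM and the isocitrate lyase gene ICL, of the glyoxylate cycle, at 11.04 ± 2.61 CPM. ICL stood at 11.8, 8.12 and 13.2 CPM in replicates 1, 2 and 3. The SD of NRT1.7 lay below counting error, so it is no measure of the precision of that level.

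**Figure D4:**
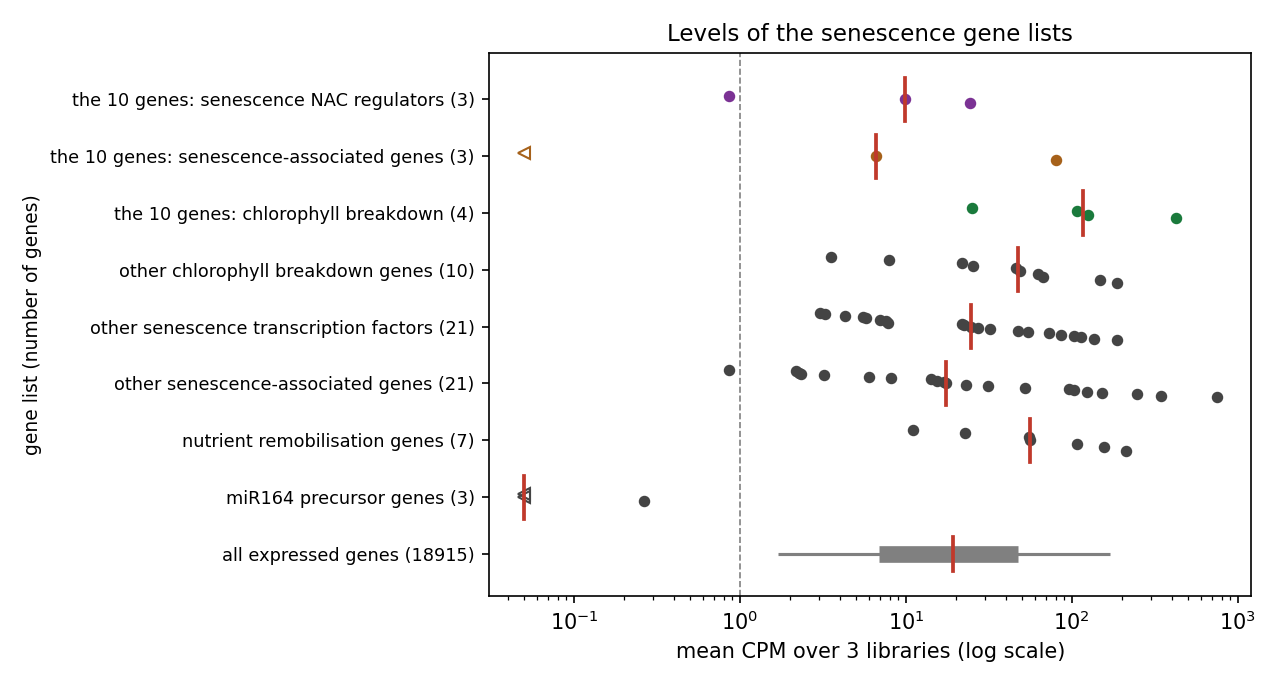
Mean CPM (x, log axis) of every gene in each list (y), with the list median in red and the threshold of 1 CPM dashed. Open triangles mark genes under 0.05 CPM, drawn at that value. The grey bar shows the 5th, 25th, 50th, 75th and 95th percentile of all 18915 expressed genes, at 1.704, 6.90, 19.1, 47.5 and 171 CPM. Of the 8 lists plotted, the one of NYE1, NYC1, PPH and PAO has the highest median, 116 CPM.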

How the data were processed

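The deposited file holds raw counts for each gene in 3 RNA libraries. The build TAIR10 and the counter featureCounts are named in the submitters' processing notes, which also list HISAT2, cutadapt, SAMtools 1.13, Bowtie2 2.4.5 and deepTools 3.5.1 without their roles. Per the labels' protocols, a stranded RNA kit was used. No source used here gives the strand setting, the annotation release or the treatment of multi-mapping reads. Of counts from 1 to 19, 84.5% to 86.2% were even, so single counts need not be single molecules. All 279 organelle genes were at 0.

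CPM and tests came from edgeR 4.0.16 under R 4.3.3, and libraries were scaled by TMM (factors 0.989 to 1.01). With 1 RNA group there was no contrast. An intercept-only model was tested per gene (goodness of fit, 2 degrees of freedom) for 18915 genes with a mean of at least 1 CPM, with the dispersion at 0 or at its trend, and a threshold of 0.05 on the adjusted p. The procedure was also run on counts simulated from the same models that the tests assume, so that run is no check of those models. DESeq2 1.42.0 gave alternative size factors. No transcript lengths and no gene or protein sequences were used here. Symbols and neighbouring genes came from a RefSeq table of assembly TAIR10.1, which held 32835 of the 33602 identifiers.

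The 10 genes and the lists were chosen with earlier results of these data known. Named genes were the 10 genes, the 5 tissue markers and, for each other list, the highest 3 and lowest 2 by CPM and any at 0; exceptions are stated. Names of all 77 list genes were found in the table or had no conflicting name there.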

Additional observations from a re-analysis of the deposited data

How the results depend on the processing

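With DESeq2 size factors or library totals only, without any 1 replicate, and at 5 CPM or 1 CPM in every library, 8 of the 10 genes remained expressed; at 0.5 CPM JUB1 joined them. For the 4 genes called beyond counting error, 20 of 28 recomputed adjusted p values still passed, and the 8 lost were of PAO, NAP, SAG21 and NYC1. The count of the 10 genes that varied beyond counting error ranged from 2 to 3 without 1 replicate and was 2 with halved counts. Over all genes that count ranged from 2964 to 3862 without 1 replicate, of 18903 to 18939 tested. With halved counts it was 1211 of 18915. With library totals only, PAO no longer passed (adjusted p = 0.0506). Against genes of the same level, none of the 8 genes tested passed under any alternative run, while over all genes 6 to 29 passed without 1 replicate and 161 with a common dispersion in place of the trend. Fewer libraries and halved counts give less power by construction. Whether the full counts hold read pairs counted double, and why calls were lost, was not tested. No paired analysis was possible because there is only 1 RNA group. A length-corrected level was not run, since no transcript length of the authors' build was used here. Depth limits statements on SAG12, JUB1 and FRK1.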
